A study of Mus musculus with 4 samples.

Results

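*Olig1*, *Olig2* and *Olig3* make up the mouse Olig family of transcription factor genes. They were taken by symbol from the raw count table, whose gene identifiers were matched to the GENCODE vM1 annotation, and are 3 of its 37310 genes. The family was picked because *Olig1* stood among the most reduced genes in the comparison described here, with *Olig2* as its neighbour on the chromosome. For that reason the values of the 3 genes are given as a description, without p-values.

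RNA-seq was performed on mouse embryonic stem cells (mESCs), which are cultured from the early embryo and can form all its tissues. The WT group was the HATX line, grown in serum with LIF, in which an *Xist* transgene can be induced with doxycycline. The other group was clone 2 of a *Spen* knockout made in HATX. It thus carries the same transgene, and the study describes the *Spen* deletion as complete in one place and as most of the gene in another. The labels give no treatment for either group, and the study describes the cells as haploid, which was not measured here. Each group was 1 line or clone with 2 libraries, numbered replicates 1 and 2 in the labels. Loss of *Spen* therefore cannot be told apart from anything else in which this clone departs from its parent line. No source used here says whether replicates were separate cultures, so adjusted p-values measure only the spread between these libraries, which may be technical.

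Olig proteins are basic helix-loop-helix (bHLH) factors, which pair through the helix-loop-helix and bind DNA through the basic region. Olig2 is best known in the ventral spinal cord, where Sonic hedgehog turns it on in the progenitors of motor neurons and oligodendrocytes, the myelinating glia of the central nervous system. Olig1 acts later in that lineage, in oligodendrocyte maturation and myelin repair, while Olig3 is known from dorsal progenitors of the hindbrain and spinal cord. None of the genes is among the factors that define pluripotency.

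*Olig1* (ENSMUSG00000046160.5) lies on chromosome 16 at chr16:91270014-91272184 in mouse build mm9, on the plus strand, and is a single exon of 2171 bases. *Olig2* (ENSMUSG00000039830.8) lies on the same strand at chr16:91225795-91228922, with 2 exons and 2437 exonic bases, and starts 44.2 kb before *Olig1*. No other annotated gene overlaps either one. *Olig3* (ENSMUSG00000045591.5) is elsewhere, at chr10:19076366-19078412 on the plus strand, with 1 exon of 2047 bases.

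The coding sequences around the bHLH domain are shown because the family is defined by this domain and because shared sequence could let reads be counted to the wrong member. They were read from the mm9 genome, 5′ to 3′ on the plus strand. Capitals mark bases that are identical in all 3 genes at aligned codon positions. The windows lie at chr16:91270410-91270604 for *Olig1*, chr16:91226975-91227154 for *Olig2* and chr10:19076693-19076872 for *Olig3*, each within an exon.
Olig1: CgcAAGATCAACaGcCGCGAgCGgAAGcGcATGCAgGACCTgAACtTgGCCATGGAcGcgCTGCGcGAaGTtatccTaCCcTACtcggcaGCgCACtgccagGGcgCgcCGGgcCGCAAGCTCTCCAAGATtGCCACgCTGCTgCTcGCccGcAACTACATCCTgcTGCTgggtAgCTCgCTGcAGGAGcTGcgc
Olig2: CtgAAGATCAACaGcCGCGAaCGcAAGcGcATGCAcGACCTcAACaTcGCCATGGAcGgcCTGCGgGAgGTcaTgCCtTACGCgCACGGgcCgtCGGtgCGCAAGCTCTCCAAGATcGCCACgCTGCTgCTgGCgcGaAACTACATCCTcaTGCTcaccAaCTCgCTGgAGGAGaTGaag
Olig3: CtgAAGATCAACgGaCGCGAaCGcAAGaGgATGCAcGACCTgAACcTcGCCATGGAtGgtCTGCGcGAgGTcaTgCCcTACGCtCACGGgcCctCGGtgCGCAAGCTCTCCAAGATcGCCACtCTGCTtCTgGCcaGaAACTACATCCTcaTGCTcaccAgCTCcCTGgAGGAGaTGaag
Over the 180 aligned bases, 132 (73.3%) were identical in the whole family. *Olig2* and *Olig3* were the closest pair at 90% identity, although they lie on different chromosomes. *Olig1* shared 79.4% with its neighbour *Olig2* and 76.1% with *Olig3*, and its window held 5 codons that the others lack. The longest run of identical bases between any 2 whole transcripts was 29, between *Olig2* and *Olig3*, and the pairs with *Olig1* reached 17. These runs are shorter than the 75-base reads. The exons of *Olig1* and *Olig2* had 0 other matches in the genome of at least 50 bases at 95% identity. In *Olig3*, 67 of the 2047 bases, after the coding sequence, matched 1140 other places, and how the authors counted reads with several matches is not given in the sources used here.

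The RefSeq promoter table of build GRCm38.p6 held an entry for *Olig2* and *Olig3*. The 250 bases before each start are shown because the level of RNA, the quantity measured here, fell for both genes. They lie on the plus strand at chr16:91225300-91225549 and chr10:19356289-19356538 in that build, and capitals mark TATAAA.
Olig2 promoter: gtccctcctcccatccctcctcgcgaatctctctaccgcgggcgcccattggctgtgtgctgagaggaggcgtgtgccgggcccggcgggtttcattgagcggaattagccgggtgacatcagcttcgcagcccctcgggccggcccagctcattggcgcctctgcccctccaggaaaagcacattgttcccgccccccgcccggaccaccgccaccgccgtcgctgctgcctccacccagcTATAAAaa
Olig3 promoter: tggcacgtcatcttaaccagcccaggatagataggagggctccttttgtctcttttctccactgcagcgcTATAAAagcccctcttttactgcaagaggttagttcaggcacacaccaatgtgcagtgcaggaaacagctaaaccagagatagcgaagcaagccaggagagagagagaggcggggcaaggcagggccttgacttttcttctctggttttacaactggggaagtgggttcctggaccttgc
In the window from 250 bases before to 50 after the start, *Olig2* had 25 CpG dinucleotides and *Olig3* had 4, against a median of 7 over 32841 promoters. The *Olig2* window thus held more CpG than 81.6% of promoters and the *Olig3* window more than 31.4%. TATAAA, searched on both strands like the motifs below, began 8 bases before the *Olig2* start and 180 bases before that of *Olig3*, and 13.6% of all promoters hold it. The E-box CANNTG, the kind of site that bHLH dimers bind, occurred 1 time for *Olig3* and 0 times for *Olig2*, and 72.3% of promoters hold at least 1. CCAAT occurred 2 times for *Olig2* and 1 time for *Olig3* (37.4% of promoters). TGGGAA, the core bound by RBPJ of the Notch pathway, occurred in neither (25.6% of promoters). A match to such letters is not shown to be a site in use.

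The libraries held 36667685 to 61908422 counts in total, and the KO-labelled libraries were the deeper ones. The targeted gene, *Spen* on chromosome 4, had normalized counts of 3716 and 3047 in WT and 7797 and 6242 in the knockout libraries. It was higher, not lower (log2 fold change 1.05 ± 0.21 SE, DESeq2 adjusted p = 7.7e-06). The study itself reports that *Spen* mRNA rose when the protein was lost. It also immunoblotted Spen protein in WT and knockout cells. Gene counts do not resolve the deleted exons and so do not check the label, and the group is called KO-labelled throughout. Defining mESC markers were high in every library. *Nanog* had 47454 and 47950 normalized counts in WT and 42237 and 49531 in KO-labelled libraries (log2 fold change -0.06, adjusted p = 0.657), and *Tdgf1* differed by -0.01 (adjusted p = 0.919). *Dppa5a* was higher by 0.28 (adjusted p = 0.000177). Over the 10 mESC markers the median log2 fold change was 0.01.

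*Olig1* was well expressed in WT mESCs and nearly silent in the KO-labelled clone. WT replicate 1 held 1076 raw counts and WT replicate 2 held 1303, against 8 and 10 in the KO-labelled libraries. Divided by size factors, which correct for depth, these were 1427 and 1419 normalized counts in WT and 6.97 and 7.83 in KO-labelled libraries. The WT libraries lay close together and the groups were far from overlapping, although the KO-labelled libraries were sequenced more deeply. Means were 1423 ± 5.39 and 7.40 ± 0.608 normalized counts (SD, n = 2), a 192-fold lower level. The log2 fold change was -7.58 ± 0.37 (SE). The KO-labelled counts were above 0, with exact 95% Poisson intervals of 3.45 to 15.8 counts in replicate 1 and 4.80 to 18.4 in replicate 2. Such intervals take in counting error alone, as PCR copies cannot be recognised without molecular identifiers.

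*Olig2* fell with its neighbour. Its raw counts were 1649 and 2321 in WT and 22 and 34 in KO-labelled libraries. Normalized counts were 2186 and 2528 in WT against 19.2 and 26.6 in KO-labelled libraries. Again every KO-labelled library was far below every WT library. The means were 2357 ± 241 and 22.9 ± 5.27 normalized counts (SD, n = 2), 103-fold lower, and the log2 fold change was -6.68 ± 0.23 (SE). Counting intervals in the KO-labelled libraries were 13.8 to 33.3 and 23.6 to 47.5 counts.

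*Olig3* was a low gene that fell less. It had 64 and 79 raw counts in WT and 12 and 24 in KO-labelled libraries. In normalized counts it stood at 84.9 and 86.0 in WT and 10.4 and 18.8 in KO-labelled libraries. The groups did not overlap here either, but the KO-labelled replicates differed more from each other in proportion than the WT ones. Means were 85.4 ± 0.833 and 14.6 ± 5.89 normalized counts (SD, n = 2), which is 5.85-fold lower, and the log2 fold change was -2.54 ± 0.52 (SE). Leaving out 1 library moved it between -3.03 and -2.18. The counting intervals in the KO-labelled libraries were 6.20 to 21.0 and 15.4 to 35.7 counts. In bulk RNA such as this, fewer cells that express a gene and less RNA per cell cannot be told apart.

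**Figure D1:**
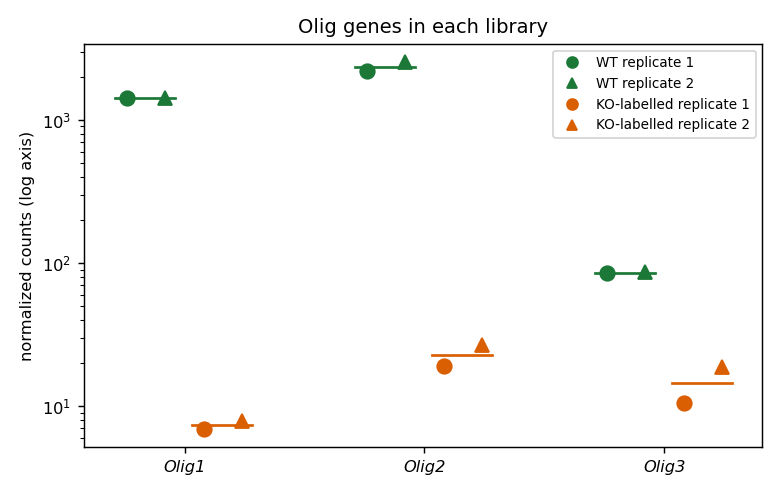
Normalized counts (log axis) of *Olig1*, *Olig2* and *Olig3* in each library. Circles and triangles are replicates 1 and 2, green is WT, orange is KO-labelled, and lines are group means; *Olig1* goes from a mean of 1423 to 7.40, *Olig2* from 2357 to 22.9 and *Olig3* from 85.4 to 14.6.

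All 3 genes were among those called lower by the thresholds of the study, a fold change of at least 2 and a DESeq2 adjusted p under 0.001. This is no separate test of them. The rule called 3.15% of the 17710 genes tested lower and 1.36% higher, but since the family was chosen on this contrast nothing is read from the count. By log2 fold change *Olig1* ranked 6 from the bottom of all tested genes, *Olig2* 16 and *Olig3* 170. Among the 13306 genes with a mean of at least 50 normalized counts, the ranks were 2, 6 and 71. Genes of the same chromosomes with a mean of at least 50 normalized counts were also lower on the whole. Their median log2 fold changes were -0.23 on chromosome 16 (401 genes) and -0.35 on chromosome 10 (613 genes). Over all 17710 genes tested, without that minimum, the median was 0.00489. With these chromosome medians removed *Olig1* stood at -7.35.

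Levels of different genes were compared per kb of exonic length. In WT libraries *Olig2* was highest with 897 and 1037 normalized counts per kb, *Olig1* followed with 657 and 654, and *Olig3* was lowest with 41.5 and 42.0. No neighbours in this order overlapped. The median over tested protein-coding genes was 207 and 211 normalized counts per kb in these libraries, so *Olig1* and *Olig2* were above the middle gene and *Olig3* below it. *Olig1* lay above 73.3% and 73.1% of 14939 tested protein-coding genes in WT and above 4.84% and 5.51% in KO-labelled libraries. For *Olig2* the figures were 78.9% and 81.3% in WT and 11.0% and 14.0% in the clone. *Olig3* was above 26.8% and 26.9%, then 7.46% and 12.4%. Within the KO-labelled libraries the order changed. *Olig1* was then the lowest member at 3.21 and 3.60 normalized counts per kb. *Olig2* at 7.86 and 10.9 and *Olig3* at 5.10 and 9.17 overlapped.

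**Figure D2:**
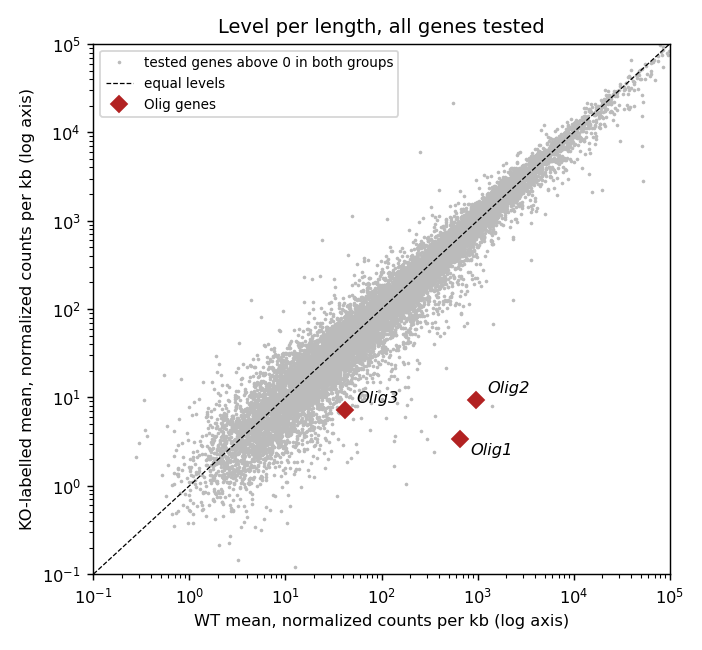
Mean level in KO-labelled against WT libraries, in normalized counts per kb of exonic length (log axes), for every tested gene above 0 in both groups (grey) and for the Olig genes (red diamonds). *Olig1* (655 in WT, 3.41 in KO-labelled) and *Olig2* (967 and 9.39) lie far below the dashed line of equal levels, and *Olig3* (41.7 and 7.14) lies nearer to it.

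The neighbours on chromosome 16 were set against each other within each library, where depth cancels. *Olig1* made up 39.5% of the *Olig1* plus *Olig2* counts in WT replicate 1 and 36.0% in replicate 2 (exact Clopper-Pearson 95% intervals 37.6 to 41.4% and 34.4 to 37.5%). In the KO-labelled libraries its share was 26.7% of 30 counts (12.3 to 45.9%) and 22.7% of 44 counts (11.5 to 37.8%). Both KO-labelled shares were below both WT shares. The interval of KO-labelled replicate 1 still included both WT values and that of replicate 2 included the value of WT replicate 2. On the log2 scale the ratio of *Olig1* to *Olig2* counts was -0.62 and -0.83 in WT and -1.46 and -1.77 in KO-labelled libraries, a difference in means of -0.89.

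Small counts in this table were more often even than odd. Of values from 1 to 10 counts, 65.4% to 67.5% were even in the 4 libraries, and all 6 KO-labelled counts of the Olig genes were even. Whether both reads of a pair were counted is not given in the sources used here and was not tested, and the intervals above treat every count as independent. Exonic GC content differed within the family. It was 60.9% in *Olig1*, above 96.8% of tested genes, 58.2% in *Olig2*, above 91.0%, and 52.7% in *Olig3*, above 63.9%, against a median of 50.1%. Its part in the values was not tested.

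Genes around the *Olig1*-*Olig2* pair were examined next, to see how far the low level extended. Within 1 Mb of the *Olig1* start the table held 47 other genes, of which 31 were tested. The study's thresholds called 2 lower, *Gm9881* and *Ifngr2*, and 0 higher, a share of the tested genes to be read against 3.15% lower and 1.36% higher over all genes. At an unadjusted p under 0.05, 15 were lower and 2 higher, where 19.5% and 20.1% of all tested genes were. The edgeR test called 2 and 0, against 3.52% and 1.43% of the genes it tested. At a DESeq2 adjusted p under 0.05 with no minimum fold 12 were lower and 2 higher, where 15.8% and 16.4% of all tested genes passed. The median log2 fold change of the 31 genes was -0.33. None of the 22 with a mean of at least 50 normalized counts came near the Olig genes, as they ranged from -1.27 to 0.36. Genes under that minimum, named after their values were seen, went both ways. *Il10rb*, 136 kb after *Olig1*, had 22 and 22 raw counts in WT and 9 and 10 in KO-labelled libraries (-1.76, DESeq2 adjusted p = 0.088). *H3f3a-ps2*, 155 kb before, had 3 and 6 against 14 and 18 (1.31, adjusted p = 0.425). *Gm15966*, 59.2 kb after, had 2 and 4 against 0 and 0 and was not tested. Such small counts cannot settle how far the low level extended.

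*Gm9881*, a predicted gene that starts 98.4 kb before *Olig1*, had 31.8 and 37.0 normalized counts in WT and 3.48 and 1.57 in KO-labelled libraries (log2 fold change -3.79 ± 0.95 SE, DESeq2 adjusted p = 0.000402). Its KO-labelled raw counts were only 4 and 2. *Ifngr2*, the signalling chain of the interferon gamma receptor, starts 277 kb after *Olig1* and had 203 and 249 normalized counts in WT against 100.1 and 88.4 (-1.27 ± 0.28 SE, adjusted p = 5.1e-05). With the chromosome medians removed neither was called, at -3.55 (adjusted p = 0.00151) for *Gm9881* and -1.03 (0.00177) for *Ifngr2*, so both stayed more than 2-fold lower and missed the p threshold. The replicate block gave -3.83 (adjusted p = 0.00427) and -1.26 (0.00258). When 1 library was left out, *Gm9881* ran from -4.45 to -3.30 and received no adjusted p. *Ifngr2* then ran from -1.40 to -1.10 and was not called, whichever library it was.

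The 5 nearest genes on each side with a mean of at least 50 normalized counts were compared. On the *Olig2* side, *Gcfc1* had 2658 and 2635 normalized counts in WT and 2514 and 2554 in KO-labelled libraries (log2 fold change -0.06 ± 0.09 SE, adjusted p = 0.656), with 1142 exonic bases shared with a gene on the other strand. *Synj1*, a phosphoinositide phosphatase of synaptic vesicle recycling, differed by 0.09, *1110004E09Rik* by 0.18 and *Urb1*, which acts in ribosome assembly, by 0.23, and of these *Urb1* alone had an adjusted p under 0.05 (0.00864). The predicted gene *Gm17518* differed by -0.88 (adjusted p = 0.083). On the other side lie receptor genes of the class II cytokine family. *Ifnar2* of the type I interferon receptor had 349 and 295 normalized counts in WT and 269.9 and 313 in KO-labelled libraries (-0.14 ± 0.21 SE, adjusted p = 0.678), and shares 569 exonic bases with *Il10rb*. Its partner *Ifnar1* had 2937 and 2683 against 2462 and 2794 (-0.10 ± 0.10 SE, adjusted p = 0.521). *Tmem50b* differed by -0.05 (adjusted p = 0.864) and *Gm15964*, which overlaps *Gart* on the other strand, by -0.67 (adjusted p = 0.0475). Farther out, genes that passed an adjusted p of 0.05 under the 2-fold threshold were named after their values were seen. Among them were *Scaf4* (-0.60, and -0.80 to -0.35 with 1 library left out), *Hunk* (-0.77) and *2610039C10Rik* (-0.46) on the *Olig2* side. On the other side were *Gart* (-0.62, 377 kb from *Olig1*), its neighbour *Son*, which was higher (0.36, adjusted p = 8.46e-05), *Cryzl1* (-0.91), *Itsn1* (-0.91) and *Mrps6* (-0.94, 789 kb). *Cryzl1* passed the study's thresholds when KO-labelled replicate 1 was left out. Counts by gene on overlapping strands cannot be separated here, since the strand setting is not given in the sources used.

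**Figure D3:**
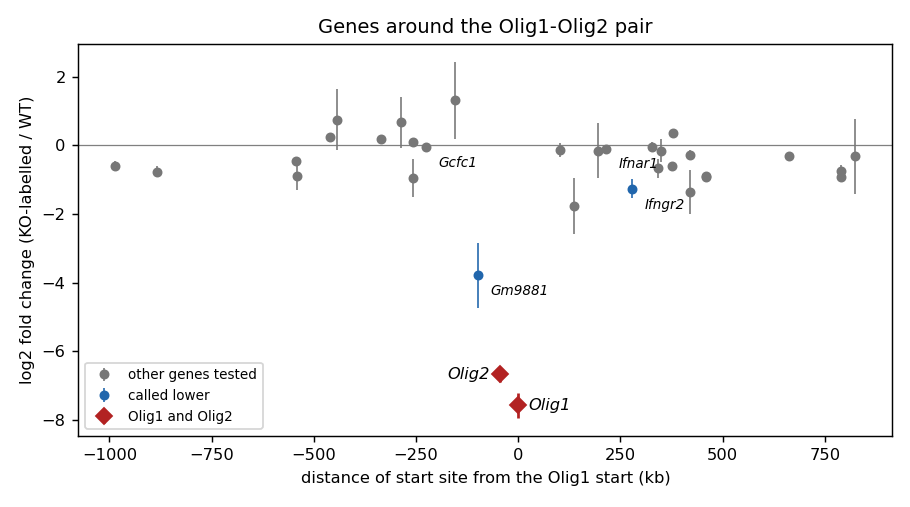
Log2 fold change (KO-labelled over WT, bars are SE) against distance from the *Olig1* start in kb for tested genes within 1 Mb. *Olig1* at -7.58 and *Olig2* at -6.68 (red diamonds) lie far below the genes on both sides; *Gm9881* at -3.79 and *Ifngr2* at -1.27 (blue) are the 2 called ones.

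*Olig3* on chromosome 10 also lies among cytokine receptor genes, near *Ifngr1*, which encodes the ligand-binding chain of the interferon gamma receptor. Of 18 other genes within 1 Mb, 13 were tested, with 1 called lower (*Perp*) and 0 higher, against 3.15% and 1.36% of all genes. At an unadjusted p under 0.05, 7 were lower and 0 higher (19.5% and 20.1% of all tested genes), and edgeR also called 1 and 0. *Perp*, a p53 target and desmosome component 511 kb before *Olig3*, had 2318 and 2230 normalized counts in WT and 725 and 806 in KO-labelled libraries (log2 fold change -1.57 ± 0.11 SE, DESeq2 adjusted p = 4.04e-44). *Ifngr1* was at 383 and 330 against 222 and 205, below the 2-fold threshold (-0.74 ± 0.21 SE, adjusted p = 0.00241). The stress kinase gene *Map3k5* differed by -0.92 (adjusted p = 2.89e-08), *D10Bwg1379e* by -0.81 (0.000118), *Hebp2* by -0.66 (0.0415) and *Tnfaip3*, an inhibitor of NF-kB signalling, by -0.61 (0.236). *Slc35d3* at 0.26 and *Pex7* at 0.01 had adjusted p of 0.843 and 0.964. The median of the 13 genes was -0.37, beside -0.35 for chromosome 10 genes with a mean of at least 50 normalized counts.

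Genes that act with the Olig factors were then described by list, starting with their bHLH relatives. The family belongs with the proneural, Neurod and Bhlhe22 groups of factors. Named genes that overlap another gene in their exons are uncertain, and beside those marked where they are described the largest overlaps were 951 bases in *Mid1*, 696 in *Mrps6*, 513 in *Msc*, 444 in *Cryzl1*, 361 in *Shh*, 278 in *Nkx2-2*, 273 in *Neurog3*, 155 in *Gata3*, 154 in *Cnp*, 109 in *Col1a1*, 103 in *Son*, 84 in *H19*, 60 in *Synj1*, 55 in *Gli1* and 41 in *Spen*. *Dab2* overlaps a second entry of the same symbol in 1374 bases. Overlaps of *Tubb3*, *Elavl3*, *Elavl4*, *Dhh*, *Ihh*, *Gm15966* and *H3f3a-ps2* were not examined. The table held 42 relatives, of which 22 were tested, with 1 called lower and 1 higher (3.15% and 1.36% of all tested genes) and a median log2 fold change of -0.29. *Neurod1*, which drives neuronal differentiation, fell from 139 and 229.8 to 42.7 and 27.4 normalized counts (-2.41 ± 0.39 SE, DESeq2 adjusted p = 7.41e-09). Without WT replicate 2 its adjusted p was 0.0102, and 201 of its exonic bases overlap *Cerkl*. *Bhlhe23*, of the group nearest to the Olig genes, moved in the other direction, from 23.9 and 33.8 to 116.7 and 101.7 (1.91 ± 0.44 SE, adjusted p = 9.66e-05). That call was lost when any 1 library was left out (adjusted p 0.00434 to 0.0511), and *Bhlhe23* shares 144 exonic bases with *Gm14343*. Its paralogue *Bhlhe22*, named after its values were seen, had 66.3 and 61.0 against 20.9 and 8.61 normalized counts and was not called (-2.12 ± 0.59 SE, adjusted p = 0.00191). With the low-count filter *Bhlhe22* was called lower (adjusted p = 0.000614), and with 1 library left out it ran from -2.88 to -1.60. The uncalled relatives with the highest mean normalized count over all libraries were the mesodermal factors *Tcf15* (0.29, adjusted p = 0.0962) and *Mesp2* (0.52, 0.185) and the repressor *Msc* (-0.87, 5.23e-06), none of them past the 2-fold threshold.

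E proteins are the general partners with which Olig factors form DNA-binding dimers, and Id proteins occupy E proteins without binding DNA. Of the 7 genes, all tested, 2 were called lower and 0 higher, against 3.15% and 1.36% of all tested genes, and the median log2 fold change was -0.45. At an unadjusted p under 0.05, 5 were lower and 1 higher (19.5% and 20.1% of all tested genes), and edgeR called 2 and 0. Both called genes encode Id proteins. *Id2* fell from 524 and 617.5 normalized counts in WT to 67.9 and 68.9 in KO-labelled libraries (-3.06 ± 0.22 SE, DESeq2 adjusted p = 5.41e-41). *Id4* fell from 171 and 143 to 35.7 and 44.6 (-1.96 ± 0.36 SE, adjusted p = 6.26e-07). The *Id4* call was lost without WT replicate 1 (adjusted p = 0.0104), without WT replicate 2 (0.00189) and without KO-labelled replicate 1 (0.00286), and 171 of its exonic bases overlap a gene on the other strand. *Id3* differed by 0.02 (adjusted p = 0.943). Among the E proteins, *Tcf12* differed by 0.22 (adjusted p = 0.0598) and *Tcf3*, the most abundant, was at 7764 and 8028 against 5494 and 5180 (-0.57 ± 0.07 SE, adjusted p = 1.1e-12). *Tcf3* lies on chromosome 10, and with chromosome medians removed it stood at -0.22 (adjusted p = 0.0158).

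Transcription factors of the oligodendrocyte lineage other than the Olig genes came next. Of 16 genes 9 were tested, with 0 called in either direction by DESeq2 or edgeR, which for so few genes is near the 3.15% lower and 1.36% higher of all tested genes, 1 lower and 1 higher at an unadjusted p under 0.05 (19.5% and 20.1% of all tested genes), and a median log2 fold change of -0.06. *Sox10*, the factor that maintains the lineage, was barely detected, with 23 and 20 raw counts in WT and 20 and 18 in KO-labelled libraries. *Nkx2-2*, which acts beside Olig2, had 0 and 6 raw counts against 6 and 8. Both were named after their values were seen, and other factors of the list had higher levels. *Myrf*, the regulator of myelin genes listed in this annotation as *Gm98*, was higher, at 1120 and 1252 against 2399 and 1910 normalized counts (0.86 ± 0.13 SE, adjusted p = 1.83e-10). With chromosome medians removed it stood at 0.48 (adjusted p = 0.00116). *Nkx6-2* was at 168 and 229.8 against 123 and 108 (-0.79 ± 0.29 SE, adjusted p = 0.0218) and overlaps *Inpp5a* on the other strand, while *Tcf7l2* differed by 0.07 (0.836).

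Of 23 oligodendrocyte progenitor and myelin genes 16 were tested and 0 were called in either direction by DESeq2 or by edgeR, again near the 3.15% and 1.36% of all tested genes, with 3 lower and 5 higher at an unadjusted p under 0.05 (19.5% and 20.1% of all tested genes) and a median of 0.00282. *Vcan*, an extracellular proteoglycan, had 729 and 824 normalized counts in WT and 1355 and 1178 in KO-labelled libraries (0.70 ± 0.13 SE, adjusted p = 1.22e-06). *Mobp*, a myelin protein gene, had 236 and 308 against 517 and 455 (0.83 ± 0.20 SE, adjusted p = 0.000209). *Cnp*, an enzyme of myelin-forming cells, was at 1043 and 1227 against 1304 and 1385 (0.24 ± 0.12 SE, adjusted p = 0.119). The genes of the list that were lower at an adjusted p under 0.05, named after their values were seen, were *Ptprz1* and *Aspa*. *Ptprz1*, a receptor phosphatase, was at 68.9 and 100.2 against 31.3 and 33.6 (-1.38, adjusted p = 0.0101). *Aspa*, an enzyme of oligodendrocytes, was at 147 and 105 against 65.3 and 62.6 (-0.97, 0.0248). With the replicate block their adjusted p were 0.0592 and 0.102. With 1 library left out they ran from -1.62 to -1.08 and from -1.20 to -0.71. The highest 3 genes of the list were thus higher in value in KO-labelled libraries. *Ptprz1* and *Aspa* had smaller counts, but so did *Bcas1*, which was higher and was named after its values were seen. *Bcas1* had 99.4 and 102 against 179 and 194 (0.89, adjusted p = 0.00873), and 440 of its exonic bases overlap a gene on the other strand.

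Motor neuron and ventral spinal cord factors, the other setting in which Olig2 is known, had the lowest median of the 6 lists at -1.36. Of 21 genes 13 were tested, and 3 were called lower and 0 higher, against 3.15% and 1.36% of all tested genes. At an unadjusted p under 0.05, 6 were lower and 0 higher (19.5% and 20.1% of all tested genes), and edgeR called 3 and 0. *Pax6*, which with Olig2 patterns the ventral progenitor domains, had 420 and 480 normalized counts in WT and 89.7 and 89.2 in KO-labelled libraries (-2.33 ± 0.23 SE, DESeq2 adjusted p = 3.25e-23), though 5542 of its exonic bases overlap *Elp4* on the other strand. *Gata3*, a factor of the neighbouring V2b interneurons, fell from 259.9 and 258 to 45.3 and 32.9 (-2.73 ± 0.31 SE, adjusted p = 4.59e-17). *Isl2*, a motor neuron homeobox gene, had only 28 and 36 raw counts in WT and 2 and 5 in KO-labelled libraries (-3.74 ± 0.89 SE, adjusted p = 0.000197). The *Isl2* call was lost with the replicate block (adjusted p = 0.00254), and it received no adjusted p when a library was left out. *Gata2* differed by -0.58 (adjusted p = 0.137) and *Nkx2-9*, a target of Sonic hedgehog, by -1.36 (0.0254). *Pax6*, *Gata3* and *Isl2* are also known outside the ventral cord, and most of the list was low or not tested.

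The hedgehog pathway, which turns on *Olig2* in the ventral neural tube, was described from ligand to target. The ligand gene *Shh* had 0 counts in every library, which allows up to 3 per library. Of the other ligand genes, named after their values were seen, *Dhh* had 35 and 37 raw counts in WT and 46 and 55 in KO-labelled libraries (log2 fold change -0.06). *Ihh* had 2 and 0 against 12 and 3 raw counts. The table held 19 genes, of which 17 were tested and 0 were called in either direction, near the 3.15% lower and 1.36% higher of all tested genes, and the median log2 fold change was -0.13. At an unadjusted p under 0.05, 5 were lower and 3 higher (19.5% and 20.1% of all tested genes), and edgeR called 1 lower (*Gpr161*, -1.05) and 0 higher (3.52% and 1.43% of the genes it tested). *Ptch1*, the receptor and itself a target, had 2763 and 3109 normalized counts in WT and 1991 and 1794 in KO-labelled libraries (-0.63 ± 0.10 SE, adjusted p = 6.98e-09). *Gli2*, the main activator, was higher, at 2009 and 2495 against 3408 and 3075 (0.52 ± 0.11 SE, adjusted p = 2e-05). *Gli1*, the usual readout of pathway activity, had 2182 and 2493 against 1692 and 1538 (-0.53 ± 0.11 SE, adjusted p = 5.83e-06). It lies on chromosome 10, and with chromosome medians removed it stood at -0.19 (adjusted p = 0.196). The values of *Ptch1*, *Gli2* and *Gli1* are below the 2-fold threshold. Named after their values were seen, *Gpr161* (-1.04, DESeq2 adjusted p = 0.00266), *Gas1* (-1.12, 0.0352) and the low gene *Scube2* (1.81, 0.00541) are past 2-fold but not past the p threshold. With 1 library left out, *Gpr161* ran from -1.13 to -0.93, *Gas1* from -1.41 to -0.73 and *Scube2* from 1.185 to 2.85.

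**Figure D4:**
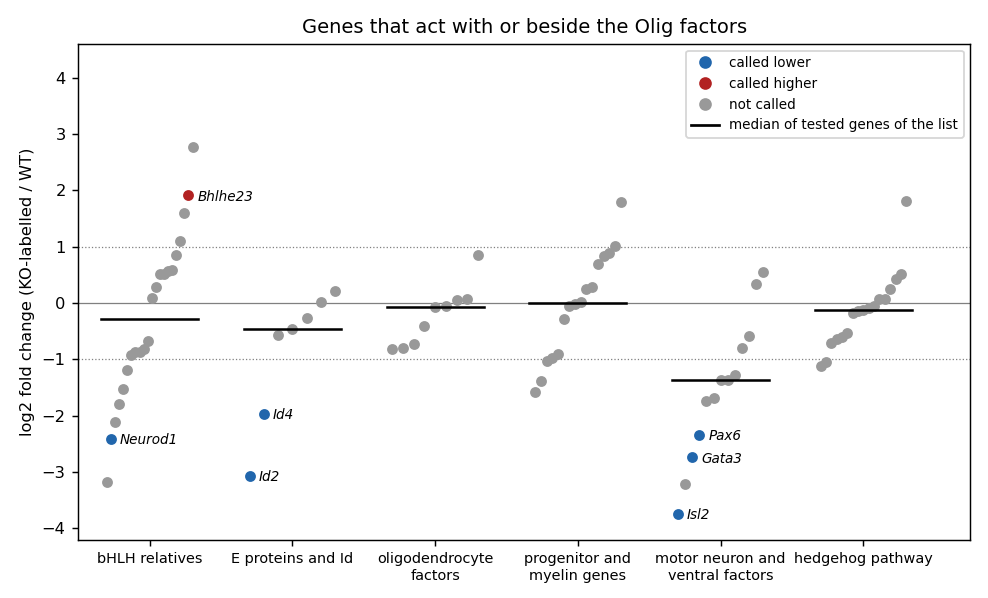
Log2 fold change (KO-labelled over WT) of the tested genes of 6 lists, each ordered by value; blue and red points were called lower and higher, black bars are medians and dotted lines mark a 2-fold change. Motor neuron and ventral factors have the lowest median (-1.36), and no oligodendrocyte, myelin or hedgehog gene was called by DESeq2.

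The genes whose 4 values were most like those of *Olig1* were found by the smallest Euclidean distance in log2(normalized count + 1) over the 4 libraries. They were *Bckdhb* (distance 1.32), a subunit gene of branched-chain amino acid breakdown on chromosome 9, then *H19* (1.35), *Peg3* (1.59), *Peg10* (2.20) and *Olig2* (2.36). Nearest to *Olig2* were *Peg10* (0.498), *Mid1* on the X chromosome (0.731), *Peg3* (0.975), *Bckdhb* (1.70) and *Calml4* (2.28). *H19*, *Peg3* and *Peg10* are imprinted, that is, normally read from the copy of a single parent. Like *Olig1* they had many counts in WT and few in the clone. *Peg3* had 2258 and 2492 normalized counts against 13.9 and 14.1, and *H19* had 833 and 853 against 3.48 and 7.83. The distance was taken over the same libraries that chose *Olig1*, and with 4 points it describes level and fold together.

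Markers of other cell types were set beside the Olig genes. Summed normalized counts of 8 primitive endoderm markers were 3985 and 3918 in WT and 1343 and 1387 in KO-labelled libraries, with *Lama1* as 78.7% to 86.6% of the sum (536 and 582 against 287 and 246 without it), and 2 of the 6 tested were called lower (3.15% of all tested genes were called lower and 1.36% higher). Of the 8 fibroblast markers 5 were tested and 1, *Thy1*, was called higher, and the sums were 210.8 and 222 against 471 and 538, of which *Thy1* made up 56.0% to 77.0%. Without *Thy1* they were 92.8 and 84.9 against 115 and 124. Neural progenitor sums were 1856 and 1751 against 1293 and 1309, where *Pax6* was the 1 called gene of 6 tested. Without *Pax6*, which overlaps *Elp4*, they were 1436 and 1271 against 1203 and 1220. The neuronal sums were 8404 and 8449 against 8092 and 8459, with 0 of 6 called by DESeq2 or edgeR and 1 lower and 1 higher at an unadjusted p under 0.05 (19.5% and 20.1% of all tested genes). *Tubb3* made up most of each sum, at 7801 and 7817 against 7377 and 7717. Of genes named after their values were seen, *Elavl3* was higher (0.48, DESeq2 adjusted p = 0.0147) and *Elavl4* lower (-0.88, 0.0957). No marker of these lists was at 0 in all libraries. The primitive endoderm sum, with or without *Lama1*, was lower in both KO-labelled libraries, as the Olig genes were, and the fall of the neural progenitor sum was mostly that of *Pax6*. Their part in the values of the Olig genes was not tested.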

How the data were processed

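RNA-seq was analysed for 2 WT and 2 KO-labelled mESC libraries. By the methods of the study, stranded libraries were depleted of ribosomal RNA, paired 75-base reads were aligned to mm9 with STAR, and the authors assigned them to GENCODE vM1 genes with featureCounts. The deposited values are raw counts per gene with no normalization. Tool versions, the strand setting and how multi-mapped reads were treated are not given in the sources used here, and the labels and methods name different instruments. Columns were matched to samples by name, and 0 columns lacked a sample. Library totals were 36667685 and 43835004 (WT) and 54715889 and 61908422 (KO-labelled), so low genes are least precise in WT. All 37310 identifiers were found in the annotation, and 11918 genes had no count.

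DESeq2 1.42.0 (R 4.3.3, Wald test, group alone, Benjamini-Hochberg adjustment over the 17710 genes given an adjusted p) gave fold changes and calls (fold of at least 2, adjusted p under 0.001). Positive values are higher in KO-labelled libraries. Adjusted p-values in the text are from this fit unless edgeR is named. Code was tested on simulated counts. Alternatives were edgeR 4.0.16 (quasi-likelihood), TMM size factors, a low-count filter (10 counts in 2 libraries), a replicate block, removal of chromosome medians, leaving out each library, a looser threshold and other windows. The same fold change alternatives for *Olig3* were added after the data were seen.

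The members and the gene lists were chosen with earlier results of these data known. Named were *Spen*, the Olig genes, the 5 genes nearest to *Olig1* on each side with a mean of at least 50 normalized counts and every called gene within 1 Mb, the 4 nearest to *Olig3* on each side with a mean of at least 10, up to 4 called genes per direction and 3 uncalled ones per list, the 3 highest mESC markers, and the 5 genes most like *Olig1* and *Olig2*. Others are said to have been chosen after their values were seen, and *Lama1*, *Thy1*, *Gpr161*, *Il10rb* and *Shh* were too. *Sox1*, *Map2*, *Ascl5*, *Tcf24*, *Slc18a3* and *Disp1* were not analysed here. Genome sequence was mm9, and promoters came from RefSeq.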

Additional observations from a re-analysis of the deposited data

How the results depend on the processing

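Log2 fold changes kept their direction in every alternative run. Over 9 alternatives *Olig1* ranged from -7.67 to -7.35, *Olig2* from -6.94 to -6.44 and *Olig3* from -3.03 to -2.18; the *Olig1* value moved by more than the spread between replicates only with chromosome medians removed (-7.35). Leaving out 1 library gave -7.67 to -7.50, -6.94 to -6.46 and -3.03 to -2.18, with the lone library assumed to vary like the other group. The *Olig1* to *Olig2* log2 ratio difference ran from -1.04 to -0.74, and KO-labelled over WT *Olig3* was 0.252 in counts and 0.171 in normalized counts. Same-numbered libraries did not deviate together (correlation -0.018 over 13306 genes). With 2 libraries per group this cannot tell whether they shared a culture or batch. The replicate block gave -7.58, -6.69 and -2.59.

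Counts of called genes were less stable. Within 1 Mb of *Olig1* the 2 genes called lower became 0 with the replicate block and 0 with chromosome medians removed. The count was 1 within 250 kb and 4 within 2 Mb. With 1 library left out, *Gm9881* received no adjusted p and *Ifngr2* was not called. Among bHLH relatives the 1 called lower became 2 with the low-count filter and 0 to 2 without 1 library, and the 1 called higher became 2 with edgeR, 2 with the filter, 2 with chromosome medians removed, 0 with the block and 0 without any 1 library. E protein and Id genes called lower were 1 to 2 without 1 library, motor neuron factors called lower 2 (of 3) with the block and without any 1 library, oligodendrocyte factors called higher 0 to 1 (*Gm98*, without KO-labelled replicate 2), and hedgehog genes called lower 1 (*Gpr161*) with edgeR, the filter or chromosome medians removed. With the threshold loosened to an adjusted p under 0.05 at any fold, which 15.8% (lower) and 16.4% (higher) of all tested genes pass, lower and higher genes were 12 and 2 of 31 around *Olig1*, 6 and 3 of 22 bHLH relatives, 4 and 0 of 7 E protein and Id genes, 1 and 1 of 9 oligodendrocyte factors, 2 and 3 of 16 progenitor and myelin genes, 5 and 0 of 13 motor neuron factors and 5 and 3 of 17 hedgehog genes. Apart from the changes that follow from fewer samples, another window or a looser threshold, the cause was not tested. Depth limits *Olig1* in the KO-labelled libraries, where it rests on 8 and 10 counts.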

Other observations

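In the primitive endoderm list DESeq2 called 2 of 6 tested genes lower, *Lama1* and *Sox7*, against 3.15% of all tested genes. *Lama1*, a laminin chain of its basement membrane, had 3450 and 3337 normalized counts in WT and 1056 and 1142 in KO-labelled libraries (log2 fold change -1.63 ± 0.10 SE, DESeq2 adjusted p = 6.8e-62), and *Sox7*, a transcription factor of that lineage, was lower by a log2 fold change of -1.45 ± 0.32 (SE, adjusted p = 4.53e-05). The *Sox7* call was lost with the replicate block (adjusted p = 0.00141) and when any 1 library was left out. *Gata4* (-1.13, DESeq2 adjusted p = 0.0014) was called lower by edgeR (adjusted p = 0.000556) but not by DESeq2, so that edgeR called 3 genes of the list (3.52% of all genes it tested), and *Dab2* was at -0.76 (0.0862). *Thy1*, a surface glycoprotein that also marks fibroblasts, was higher at 1.59 ± 0.23 (SE, adjusted p = 1.63e-10), while the collagen gene *Col1a1* was at 0.98 (0.188). *Neurog3*, a bHLH relative that drives endocrine pancreas fate, had 42.4 and 28.3 normalized counts in WT against 114 and 97.8 (1.59 ± 0.43 SE, DESeq2 adjusted p = 0.0012). It was not called by DESeq2 but was called higher by edgeR (adjusted p = 0.00066), with the low-count filter (0.000456) and with chromosome medians removed (4.04e-05), while leaving out 1 library gave 0.0096 to 0.119. These genes were named after their values were seen.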
